A study of Mus musculus with 30 samples.

Results

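The 42 genes described here act in the G2 and M phases of the cell cycle. They were chosen by name, all 42 were found among the 24063 genes of the bulk table and the 27933 genes of the single-cell table, and all 42 passed the filter on low counts in the bulk libraries. By role they were 5 cyclins and CDK1 partners, 4 mitotic kinases, 4 genes of the spindle checkpoint and anaphase-promoting complex, 3 of the chromosomal passenger complex, 6 of the kinetochore and centromere, 7 mitotic kinesins, 4 other spindle proteins, 5 of chromosome structure and 4 of cytokinesis or other roles. The samples were bone marrow cells of mice with a floxed Mettl3 gene (Mettl3 fl/fl, called WT) and of mice that carried Mx1-Cre as well (Mx1-Cre; Mettl3 fl/fl, called Mettl3KO), all taken 3 weeks after pIpC, the double-stranded RNA that switches Mx1-Cre on through interferon. Mettl3 encodes the catalytic subunit of the enzyme that writes m6A onto messenger RNA. WT mice thus also carried the floxed alleles and, per the labels, also received pIpC, whereas the Cre transgene was present in Mettl3KO mice only. Mx1-Cre acts in most cells that answer interferon and is not restricted to blood stem cells. Bulk RNA-seq covered 4 populations sorted from Lin-;Sca1+;c-Kit+ marrow cells, 3 mice per genotype in each. Of the CD48- populations, HSC were CD150+ and MPP1 were CD150-, and of the CD48+ populations, MPP2 were CD150+ and MPP4 were CD150-. Droplet single-cell RNA-seq (10x) covered Lin-; c-Kit+ (LK) cells of 3 mice per genotype.

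Entry into mitosis is driven by cyclin B bound to CDK1, after which Aurora and Polo-like kinases build the spindle, the checkpoint holds the anaphase-promoting complex until every kinetochore is attached, and cyclin B and securin are then destroyed. Most genes of this program are repressed in resting cells by the DREAM complex and activated in G2 by B-MYB and FOXM1, through a promoter element called the CHR and through CCAAT boxes bound by NF-Y. Long-term blood stem cells are largely quiescent, and multipotent progenitors cycle more, so the summed level of these transcripts in a sorted population depends on the share of its cells in G2 and M and on the level per cell. In the bulk libraries fewer cells in these phases and less RNA per cell cannot be told apart.

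The promoters are shown because they hold a feature that most of these genes have in common and that their choice did not use. Of the 42 genes, 36 had an entry in the RefSeq promoter table (GRCm38.p6), in 38 windows of 300 bases that run from 250 before to 50 after the annotated start. The CHR, searched as TTTGAA or TTCGAA on both strands with overlapping matches allowed, was found in 30 of the 36 genes and in 84.2% of their windows, against 19.2% of all 32851 windows. CCAAT, searched on both strands, was found in 29 of the 36 genes and in 81.6% of their windows, against 37.4% of all windows. Both were present in 73.7% of the windows of the 42 genes and in 7.52% of all windows. Of 50 other mitosis genes, 37 had a window, and 25 of these held the CHR. Of 29 genes of G1/S and DNA replication, 23 had a window, and 4 held the CHR, while 15 held CCAAT. A match is a run of letters and was not tested for binding. The 150 bases just before the start of 7 genes are given 5′ to 3′ on the gene's strand, with CHR and CCAAT matches of either strand in capitals. They are Ccnb1, Cdk1, Cdc20, Top2a, Mki67, Cenpf and Kif2c, which the results below turn on or which carry several matches.
Ccnb1, chr13:100786487-100786636, minus strand: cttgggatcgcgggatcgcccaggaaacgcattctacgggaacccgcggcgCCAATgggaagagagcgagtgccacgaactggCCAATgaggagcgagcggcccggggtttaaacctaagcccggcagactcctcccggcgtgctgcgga
Cdk1, chr10:69352913-69353062, minus strand: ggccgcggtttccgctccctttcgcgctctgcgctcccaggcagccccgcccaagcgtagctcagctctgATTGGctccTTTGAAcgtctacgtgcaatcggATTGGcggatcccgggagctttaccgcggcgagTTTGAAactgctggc
Cdc20, chr4:118437344-118437493, minus strand: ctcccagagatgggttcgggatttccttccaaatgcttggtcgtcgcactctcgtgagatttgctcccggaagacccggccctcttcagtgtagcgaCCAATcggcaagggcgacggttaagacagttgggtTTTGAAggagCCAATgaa
Top2a, chr11:99024190-99024339, minus strand: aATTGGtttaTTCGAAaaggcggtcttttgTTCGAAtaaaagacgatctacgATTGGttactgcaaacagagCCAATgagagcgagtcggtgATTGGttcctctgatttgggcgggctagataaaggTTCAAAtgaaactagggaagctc
Mki67, chr7:135716380-135716529, minus strand: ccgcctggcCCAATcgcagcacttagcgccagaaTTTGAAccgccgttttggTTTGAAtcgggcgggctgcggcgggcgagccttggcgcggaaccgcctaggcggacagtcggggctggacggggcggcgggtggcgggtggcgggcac
Cenpf, chr1:189688087-189688236, minus strand: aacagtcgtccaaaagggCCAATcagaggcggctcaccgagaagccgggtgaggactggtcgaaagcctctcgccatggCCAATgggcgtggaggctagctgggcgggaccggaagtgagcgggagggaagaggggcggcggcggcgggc
Kif2c, chr4:117178773-117178922, minus strand: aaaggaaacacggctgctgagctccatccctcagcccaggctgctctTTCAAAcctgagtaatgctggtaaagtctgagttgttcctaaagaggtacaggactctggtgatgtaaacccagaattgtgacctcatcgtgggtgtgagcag
Top2a, the enzyme that untangles sister chromatids, had 4 CHR and 6 CCAAT matches in its window. Kif2c, a kinesin that takes microtubule ends apart, had 1 CHR and no CCAAT match in its window. That window, chr4:117178723-117179022, lies inside the gene in the GENCODE vM21 annotation, whose upstream end is at 117182639. It thus belongs to an internal start, and the bases before the upstream end were not searched. In Cenpf, a large kinetochore protein, the CHR lay after the start and is not in the bases shown. Ccnb1, which encodes cyclin B1, had 2 CCAAT and no CHR match in its window.

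Bulk totals were 28896500 to 55276800 counts, and the 42 genes had between 183 counts (Hmmr) and 30141 counts (Tpx2) per library. Mettl3 was lower in every Mettl3KO library, at 11.6 to 22.4 CPM (counts scaled to a common library size, with TMM factors) against 29.6 to 42.5 CPM in WT, so transcripts of the gene were still counted. Mean Mettl3 was 14.4 CPM in Mettl3KO against 36.8 CPM in WT for HSC, and 12.4 against 34.9 CPM for MPP1. It was 15.4 against 32.5 CPM for MPP2 and 19.2 against 32.8 CPM for MPP4, the highest Mettl3KO level. Cd48 was 5.58 to 33.5 CPM in the CD48- sorts and 136 to 254 CPM in the CD48+ sorts. MPP1 Mettl3KO replicate 2 stood apart with 68641 CPM from the neutrophil marker list, against at most 4213 CPM in the other 23 libraries. MPP2 WT replicate 1 stood apart with 6365 CPM from the macrophage marker list, against 1021 and 275 CPM in the other MPP2 WT libraries and at most 1411 CPM in any other group. The calls on MPP1 Mettl3KO and on MPP2 are given with and without these libraries. Rn45s, the precursor of ribosomal RNA, took 5.12 to 5.50% of counts in replicate 2 of HSC, MPP1 and MPP2 Mettl3KO, and at most 3.61% in any other library. The bulk p-values measure the spread between mice within groups of 3, estimated over all 24 libraries and not from the compared libraries alone. The main fit took libraries with the same replicate number as independent.

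Among the WT populations, transcripts of the 42 genes were lower in HSC and MPP1 than in MPP2 and MPP4. Summed over the 42 genes, the WT libraries held 1700 to 2986 CPM in HSC, 1522 to 2278 CPM in MPP1, 4851 to 5360 CPM in MPP2 and 4940 to 6044 CPM in MPP4. The HSC and MPP1 ranges overlap, as do the MPP2 and MPP4 ranges, and the 2 pairs lie apart from each other. Ccnb1 stood at 39.3, 21.8 and 29.5 CPM in HSC, 34.0, 22.2 and 31.8 CPM in MPP1, 92.4, 63.7 and 80.5 CPM in MPP2 and 93.0, 76.4 and 64.7 CPM in MPP4. No CD48- library reached the lowest CD48+ library for this gene. All 42 genes had a negative log2 fold change in HSC against MPP2 and against MPP4, and in all 42 the 3 HSC libraries lay below the 3 libraries of the other population. Over all 15545 genes tested, 18.3% lay below in this way in HSC against MPP2 and 21.3% in HSC against MPP4. MPP1 lay below MPP2 without overlap for 41 of the 42 genes (15.1% of all genes) and below MPP4 for 41 (17.3% of all genes), and Ttk, a checkpoint kinase, was the exception in both. Of 14 marker lists, 9 also set the WT HSC and MPP1 libraries apart from all WT MPP2 and MPP4 libraries, HSC/MPP markers being higher and 8 lists of other cell types lower. Granulocyte progenitor markers summed to 277 to 590 CPM in HSC and 765 to 1259 CPM in MPP1, against 4430 to 8856 CPM in MPP2 and 3646 to 6652 CPM in MPP4. Dendritic cell markers summed to 633 to 1007 CPM in HSC and MPP1 and to 2449 to 7692 CPM in MPP2 and MPP4. The part of these markers in the differences between populations was not tested.

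By edgeR's quasi-likelihood test with Benjamini-Hochberg adjustment over all genes, HSC had lower levels of 4 of the 42 genes than MPP2 did, where 2.51% of all genes were called lower, and of 17 than MPP4 did (6.65% of all genes). The median log2 fold change of the 42 genes was -1.07 and -1.11, against 0.00 and 0.04 over all genes. The 4 genes against MPP2 were Ccnb1 (-1.38 ± 0.29 SE, adjusted p = 0.010), Kif22, a chromosome-bound kinesin (-1.20, adjusted p = 0.023), Kif2c (-1.12, adjusted p = 0.028) and Aurkb, the kinase of the passenger complex (-1.32, adjusted p = 0.035). Against MPP4 all 4 mitotic kinases of the list passed (Aurka, Plk1, Ttk and Pbk), with Ccnb1 first (-1.37 ± 0.29 SE, adjusted p = 0.0046) and Cenpa, the centromeric histone, at -1.45 (adjusted p = 0.019). The medians were larger for MPP1, by an amount that was not tested. In MPP1 12 genes were called lower than in MPP2 (1.58% of all genes) and 21 were called lower than in MPP4 (2.76% of all genes). The medians were -1.33 and -1.41.

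Kif2c had the largest difference between WT populations, at 13.2, 10.0 and 24.5 CPM in MPP1, 71.9, 69.6 and 90.0 CPM in MPP2, 75.0, 64.3 and 62.2 CPM in MPP4 and 43.5, 23.3 and 39.7 CPM in HSC. MPP1 was lowest in 2 of its 3 libraries, and its highest library lay just above the lowest HSC library. The log2 fold change of Kif2c in MPP1 was -2.28 ± 0.29 (SE) against MPP2 and -2.08 ± 0.29 (SE) against MPP4, with adjusted p = 0.00033 and 0.00032. Against MPP4, the 4 members of the spindle checkpoint and anaphase-promoting complex (Bub1, Bub1b, Cdc20, Ube2c) and 6 of 7 kinesins (Kif11, Kif20a, Kif20b, Kif22, Kif2c, Kif4) were called lower in MPP1. All 42 genes had a negative log2 fold change in that comparison. Between HSC and MPP1 none of the 42 genes was called (4 at an unadjusted p under 0.05, 1 by DESeq2), where 0.0257% of all genes were. Between MPP2 and MPP4 none was called (0 at an unadjusted p under 0.05, 0 by DESeq2), where 0.0901% of all genes were, and the median was -0.07.

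WT libraries with the same replicate number deviated together across populations (correlations of 0.10 to 0.43 in all 18 pairs), so the numbers pair the WT populations. With the replicate block within genotype, the calls lower were 14 for HSC against MPP2 (3.76% of all genes), 29 for HSC against MPP4 (8.3%) and 23 for MPP1 against MPP2 (2.58%). For HSC the number of calls depended on which library was left out, and the share of all genes called lower fell too, as given below. Without HSC WT replicate 2, which had the lowest sum, the count was 0 against MPP2 and 1 (Ccnb1) against MPP4, and without MPP2 WT replicate 1, the library with the macrophage markers, the first count was also 0 (1.04% of all genes), with a median of -1.02. Leaving out other HSC, MPP2 or MPP4 libraries left 1 to 4 and 2 to 9 genes. For MPP1 the counts without 1 library were 1 to 9 against MPP2, the lowest without MPP1 WT replicate 2, and 9 to 16 against MPP4. Without MPP2 WT replicate 1, 5 genes were called lower in MPP1 than in MPP2 (0.581% of all genes), namely Kif2c, Kif20a, Bub1b, Aurkb and Tpx2. None was then called between MPP2 and MPP4. Over the fits without 1 library, the share of all genes called lower was 0.807 to 1.75% for HSC against MPP2, 2.02 to 4.51% for HSC against MPP4, 0.368 to 0.767% for MPP1 against MPP2 and 1.22 to 1.59% for MPP1 against MPP4.

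**Figure D1:**
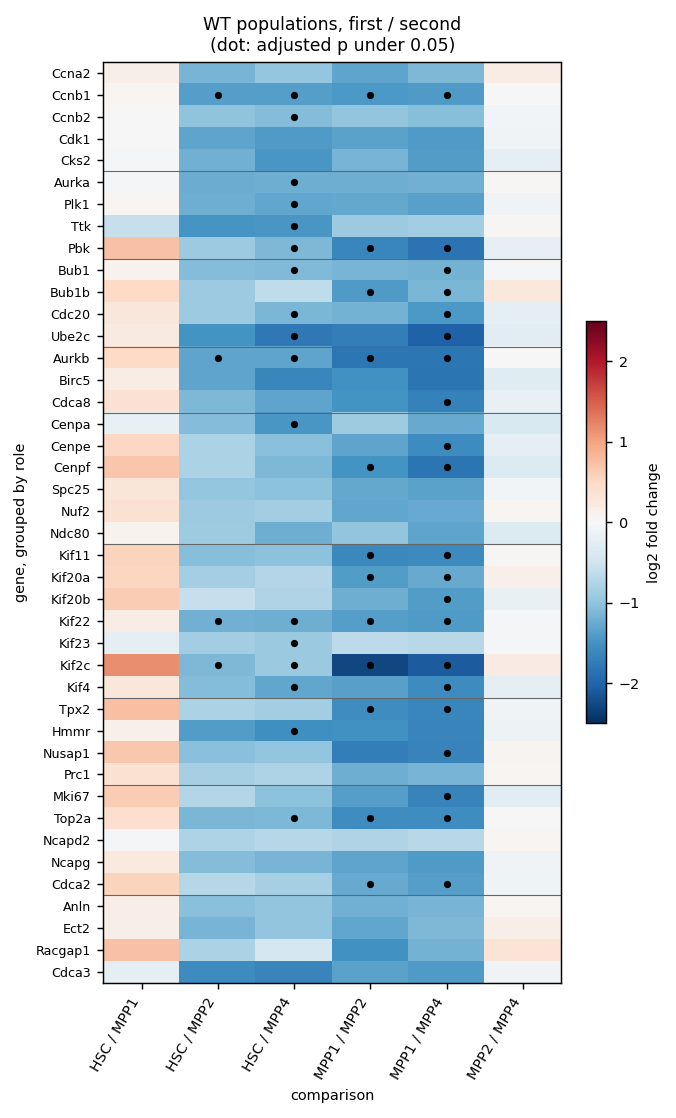
Log2 fold change of the 42 genes (rows, grouped by role) between WT populations, first over second (columns), from 3 libraries each; blue is lower in the first population and dots mark adjusted p under 0.05. The 4 columns that set HSC or MPP1 against MPP2 or MPP4 are blue in all 42 rows.

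In Mettl3KO, the clearest shift in the summed level was in MPP4. The MPP4 Mettl3KO libraries also kept the highest Mettl3 levels, as given above. The sum over the 42 genes was 7717, 7487 and 9186 CPM in MPP4 Mettl3KO and 6044, 4940 and 5144 CPM in MPP4 WT, with no overlap. In HSC the sums were 2921, 3574 and 2703 CPM in Mettl3KO and 2986, 1700 and 2973 CPM in WT, which overlap. In MPP2 they were 5157, 6005 and 5252 CPM against 5298, 4851 and 5360 CPM, which overlap too. In MPP1 they were 1586, 5054 and 1466 CPM against 2278, 1522 and 2243 CPM, and the highest is the library with the neutrophil markers.

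**Figure D2:**
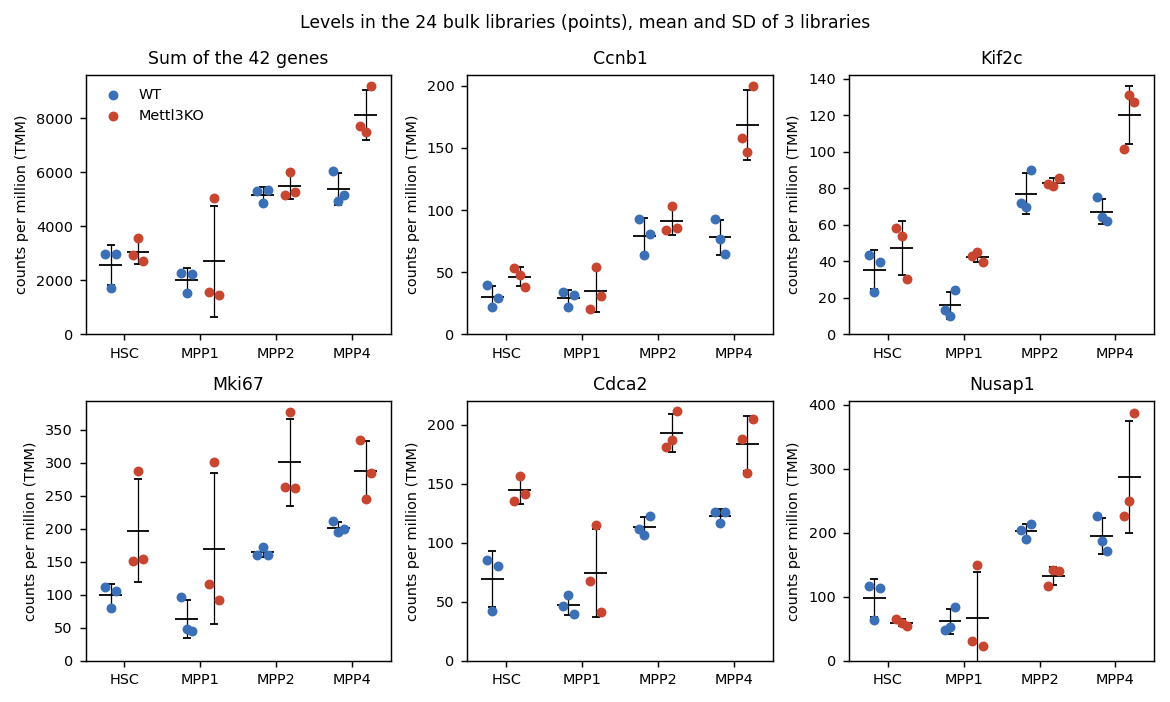
Levels in the 24 bulk libraries (CPM, linear axes from 0) for the sum of the 42 genes and for Ccnb1, Kif2c, Mki67, Cdca2 and Nusap1; points are libraries, bars the mean ± SD of 3. In MPP4 the Mettl3KO sums (7487 to 9186) lie above all WT sums (4940 to 6044), and in MPP1 1 Mettl3KO library (5054) lies far above the other 2.

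All 42 genes had a positive log2 fold change in MPP4, from 0.08 (Cks2) to 1.11 (Ccnb1), with a median of 0.56 against -0.01 over all genes. For 33 of the 42 genes all 3 Mettl3KO libraries lay above all 3 WT libraries, where 13.9% of all genes did. The 42 genes moved together over the 24 bulk libraries (median pairwise correlation 0.87), so these are not 33 independent results. Only Ccnb1 passed the test over all genes, where 1.03% of all genes were called higher. Ccnb1 stood at 158, 147 and 200 CPM in Mettl3KO against 93.0, 76.4 and 64.7 CPM in WT, a log2 fold change of 1.11 ± 0.29 (SE, adjusted p = 0.037, edgeR). The next by p were Kif2c (0.84, adjusted p = 0.12) and Bub1b, the checkpoint kinase BUBR1 (0.83, adjusted p = 0.12). Bub1b was 89.3, 123 and 131 CPM against 63.4, 65.4 and 64.5 CPM, so its groups lie apart as well. Cdk1 was 261, 220 and 268 CPM against 187, 141 and 141 CPM, and Top2a was 375, 318 and 455 CPM against 250, 223 and 193 CPM.

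Other genes of each role were also higher in all 3 MPP4 Mettl3KO libraries, though none of those named next passed the test over all genes. Plk1, the Polo-like kinase, stood at 128, 141 and 142 CPM, and WT at 103, 67.0 and 66.2 CPM. Aurka, the spindle pole kinase Aurora A, was 185, 207 and 214 CPM against 135, 119.5 and 159 CPM. Cdc20, the activator of the anaphase-promoting complex, stood at 238, 239 and 256 CPM, and WT at 208, 158 and 178 CPM. For Plk1, Aurka and Cdc20 every Mettl3KO library lay above every WT library. Birc5, survivin, was 577, 393 and 532 CPM against 388, 273 and 345 CPM. Aurkb, Aurora B, stood at 177, 192 and 213 CPM, and WT at 143, 104 and 113 CPM. Ndc80, the microtubule-binding core of the kinetochore, was 52.4, 53.3 and 64.0 CPM against 47.3, 40.7 and 43.8 CPM. For Birc5, Aurkb and Ndc80 every Mettl3KO library lay above every WT library. Kif11, the kinesin that pushes spindle poles apart, stood at 124, 123 and 152 CPM, and WT at 84.6, 80.5 and 66.3 CPM. Tpx2, an activator of Aurora A, was 598, 645 and 677 CPM against 489, 419.9 and 437 CPM. Hmmr, a spindle assembly protein, stood at 57.2, 61.0 and 61.4 CPM, and WT at 53.6, 47.4 and 51.7 CPM. For Kif11, Tpx2 and Hmmr every Mettl3KO library lay above every WT library. Ncapd2, a condensin subunit, was 174, 191 and 172 CPM against 99.6, 123 and 128 CPM. Racgap1, a centralspindlin subunit needed for cytokinesis, stood at 335, 386 and 481 CPM, and WT at 243, 208 and 267 CPM. For Ncapd2 and Racgap1 every Mettl3KO library lay above every WT library.

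The number of calls in MPP4 moved with the model. The test that shares its spread over all 24 libraries gave 1, DESeq2 gave 2 (Ccnb1 and Kif2c, where 2.26% of all genes were higher), and edgeR on the 6 MPP4 libraries alone gave 17 (4% of all genes were higher), Ccnb1, Kif2c and Bub1b among them. Leaving out any 1 of the 6 libraries left 0. Of the 14 marker lists, 8 also set the MPP4 genotypes apart. Markers of B cell progenitors were higher in Mettl3KO, at 1924 to 4401 CPM against 433 to 953 CPM over the list, as were lymphoid-primed markers (2501 to 3205 against 1709 to 2420 CPM) and monocyte progenitor markers (576 to 886 against 384 to 570 CPM). Lower lists were those of HSC/MPP (1273 to 1462 against 1612 to 2465 CPM), dendritic cells (2852 to 3174 against 3676 to 7692 CPM), erythroid cells (252 to 337 against 713 to 772 CPM), megakaryocytes (75.3 to 104 against 255 to 384 CPM) and endothelium (657 to 775 against 801 to 918 CPM). In the single-cell data B cell progenitor-like cells had the largest share of UMIs from the 42 genes among the classes tested. The part of these cell types in the MPP4 result was not tested.

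In HSC, Cdca2, which targets a phosphatase to chromosomes at the end of mitosis, was the 1 gene that passed, where 3.66% of all genes were called higher. It stood at 135, 157 and 141 CPM in Mettl3KO against 85.5, 41.8 and 80.2 CPM in WT, a log2 fold change of 1.06 ± 0.27 (SE, adjusted p = 0.024, edgeR). The median of the 42 genes was 0.28, and 6 of them (Aurkb, Cenpe, Cenpf, Kif4, Mki67 and Cdca2) had all Mettl3KO libraries above all WT libraries, a share of 14.3% against 12.1% of all genes. Mki67, which coats mitotic chromosomes and marks cycling cells, was 151, 287 and 154 CPM against 112, 79.5 and 106 CPM (0.99, adjusted p = 0.11). Cenpe, a kinetochore kinesin, was 48.7, 99.9 and 60.5 CPM against 44.7, 19.8 and 33.9 CPM (1.09, adjusted p = 0.10). Nusap1, a spindle microtubule binder, lay the other way, at 64.9, 59.6 and 54.3 CPM against 116, 63.5 and 114 CPM (-0.71, adjusted p = 0.40). Cdca2 lost its call without HSC WT replicate 2, without HSC Mettl3KO replicate 2 or 3, and on the 6 HSC libraries alone. Without HSC WT replicate 2 the median fell to 0.05. Rn45s took 2.13 to 5.49% of counts in HSC Mettl3KO and 1.77 to 2.09% in WT, without overlap. Of the 14 marker lists, 6 set the HSC genotypes apart, among them megakaryocyte markers at 594 to 778 CPM in Mettl3KO against 1552 to 2324 CPM in WT, lymphoid-primed markers at 30.9 to 71.7 against 114 to 466 CPM, dendritic cell markers at 126 to 294 against 633 to 932 CPM and erythroid markers at 695 to 863 against 1101 to 1527 CPM. Markers of T and NK cells were lower too, and endothelial markers were higher. Their part in the HSC result was not tested.

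In MPP2 none of the 42 genes passed (4 at an unadjusted p under 0.05, 0 by DESeq2), where 1.51% of all genes were called higher. For 7 genes (Aurkb, Birc5, Cenpe, Cenpf, Kif20b, Mki67 and Cdca2) all Mettl3KO libraries lay above all WT libraries, a share of 16.7% against 13% of all genes. For 3 genes (Spc25, Nusap1 and Prc1) all lay below, where 13.6% of all genes did. Mki67 was 263, 377 and 262 CPM against 161, 173 and 161 CPM (0.87, adjusted p = 0.22), Cdca2 was 181, 187 and 212 CPM against 112, 107 and 123 CPM (0.77, adjusted p = 0.15), and Cenpf was 106, 133 and 91.5 CPM against 70.2, 65.5 and 42.03 CPM (0.89, adjusted p = 0.24). Nusap1 again lay lower, at 116, 141 and 141 CPM against 204, 191 and 214 CPM (-0.61, adjusted p = 0.56). On the 6 MPP2 libraries alone Cdca2 and Mki67 passed, where 2.12% of all genes were higher. Without MPP2 WT replicate 1 none passed (3 at an unadjusted p under 0.05), where 0.549% of all genes were higher, and Cdca2 was at 0.75 (adjusted p = 0.34), Mki67 at 0.85 (adjusted p = 0.43) and Cenpf at 1.03 (adjusted p = 0.34). Of the 14 marker lists 4 set the MPP2 genotypes apart, with B cell progenitor markers higher in Mettl3KO and lymphoid-primed, erythroid and T and NK cell markers lower, and their part was not tested.

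In MPP1 4 genes were called higher, where 4.74% of all genes were, namely Kif2c (1.42 ± 0.28 SE, adjusted p = 0.0047), Mki67 (1.41, adjusted p = 0.020), Cenpf (1.45, adjusted p = 0.023) and Cenpe (1.34, adjusted p = 0.036). Kif2c stood at 42.7, 45.3 and 39.6 CPM in Mettl3KO against 13.2, 10.0 and 24.5 CPM in WT, and it was the 1 gene of the 42 whose groups lay apart (10.1% of all genes did). Without MPP1 Mettl3KO replicate 2 the picture turned, with 1 gene higher, Kif2c (1.39, adjusted p = 0.0086), where 5.9% of all genes were, and 8 lower, where 5.1% of all genes were. The 8 were Spc25 (-1.58), Nusap1 (-1.21), Ccna2 (-1.18), Racgap1 (-1.07), Prc1 (-1.06), Kif23 (-1.02), Ndc80 (-0.99) and Kif11 (-0.98), and the median of the 42 genes went from 0.35 to -0.56. Without MPP1 WT replicate 2 or 3, and on the 6 MPP1 libraries alone, the counts were 1, 1 and 0. Kif2c thus kept its call without each single library, and the other 3 did not. Of the 14 marker lists 6 set the MPP1 genotypes apart, with B cell progenitor, monocyte progenitor and basophil markers higher in Mettl3KO and lymphoid-primed, erythroid and megakaryocyte markers lower, and their part was not tested.

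No gene of the 42 had a Mettl3KO effect in HSC that differed from that in MPP1, MPP2 or MPP4 by the interaction test (1, 0 and 2 at an unadjusted p under 0.05, 0 each by DESeq2), where 0.0386%, 0.00643% and 1.55% of all genes did. Without MPP1 Mettl3KO replicate 2 none differed between HSC and MPP1 either, where 0.0749% of all genes did, but 21 of the 42 had an unadjusted p under 0.05 and the median difference, HSC minus MPP1, was 0.76. Without MPP2 WT replicate 1 none differed between HSC and MPP2 (0 at an unadjusted p under 0.05). A call in one population and not in another is therefore not shown to be a difference between them.

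**Figure D3:**
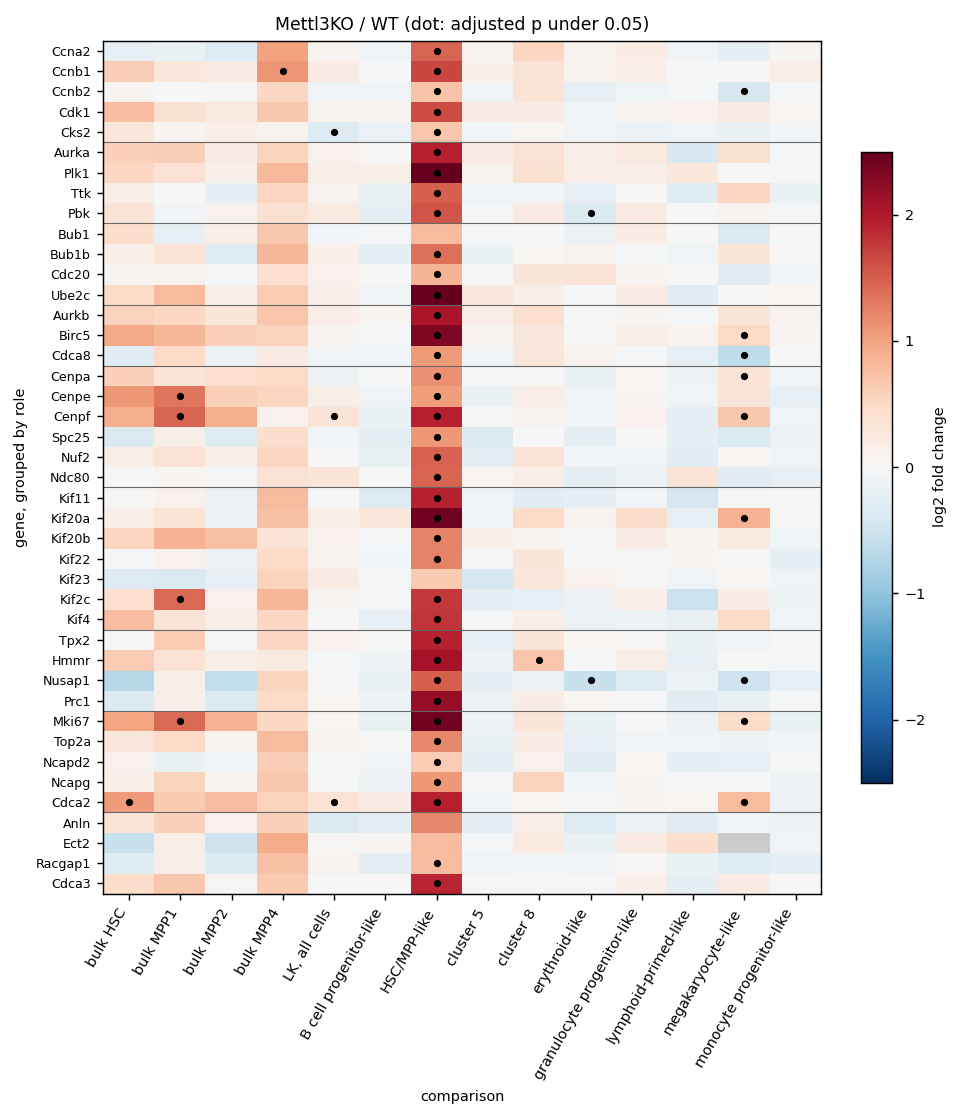
Log2 fold change, Mettl3KO over WT, of the 42 genes (rows, grouped by role) in the 4 bulk populations, in all LK cells and in 9 LK classes (columns), 3 libraries per genotype; dots mark adjusted p under 0.05, grey was not tested. The HSC/MPP-like column has 38 dots and rests on 2 clusters of unlike genotype makeup, as given in the text.

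Transcript length was set beside the Mettl3KO changes. Mki67 (transcript of 10061 bases, longest exon 6836 bases), Cenpf (11130 and 3428 bases), Cenpe (7910 and 461 bases), Kif20b (5564 and 1234 bases) and Top2a (5221 and 471 bases) are the 5 genes with a transcript of 5000 bases or more in the GENCODE vM21 annotation of GRCm38. Their median log2 fold change was 0.91 in HSC, 1.34 in MPP1, 0.74 in MPP2 and 0.51 in MPP4, against 0.15, 0.32, 0.03 and 0.58 for the 37 shorter ones. Across all 13787 genes with a length, those of 5000 bases or more had medians of -0.00, 0.24, 0.01 and 0.04. Across the 42 genes, the Spearman correlation of the change with the longest exon was 0.29 in HSC, 0.52 in MPP1, 0.25 in MPP2 and 0.11 in MPP4, which describes genes measured in the same libraries and carries no test. With transcript length it was 0.27, 0.33, 0.17 and 0.19 in the same order, so MPP4 was not the lowest. Over all genes with a length, the correlation with transcript length was -0.09, 0.16, -0.04 and 0.14. The median of the long genes was thus above that of the shorter ones in HSC, MPP1 and MPP2 and not in MPP4. Without MPP1 Mettl3KO replicate 2 the MPP1 medians were 0.71 for the long and -0.62 for the shorter genes, with Cenpf at 0.89, Mki67 at 0.73, Cenpe at 0.71, Kif20b at 0.47 and Top2a at -0.44, and the correlation with the longest exon was 0.16. Without MPP2 WT replicate 1 the MPP2 medians were 0.78 and 0.05. In the single-cell data the medians were 0.11 for the long and 0.06 for the shorter genes over all LK cells, 0.32 and 0.00 in megakaryocyte-like cells, and 1.25 and 1.49 in HSC/MPP-like cells. In the other 7 classes or clusters the long genes lay between -0.13 and 0.17 and the shorter ones between -0.12 and 0.20.

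**Figure D4:**
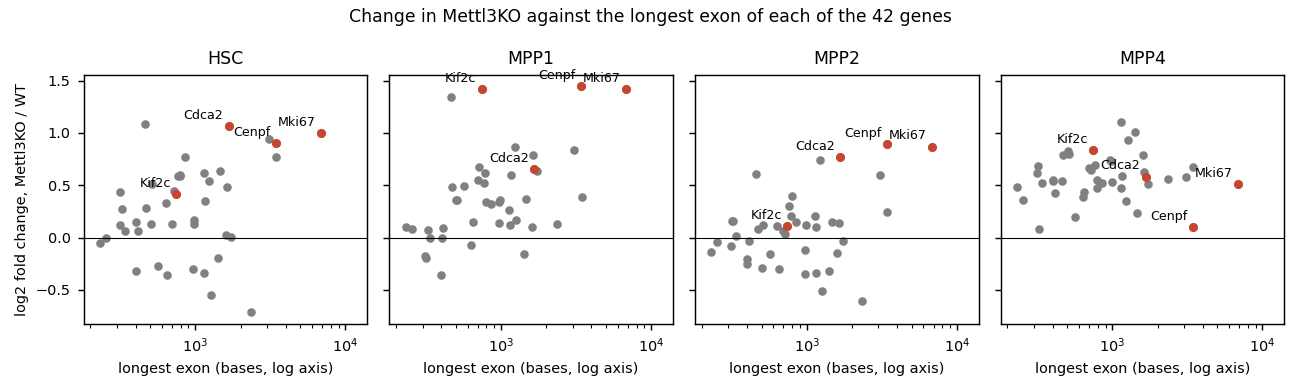
Log2 fold change, Mettl3KO over WT, of each of the 42 genes against its longest exon (bases, log axis) in the 4 bulk populations; named genes are in red. Mki67 and Cenpf, with exons of 6836 and 3428 bases, lie among the highest in HSC, MPP1 and MPP2 and not in MPP4. Genes not named in it go other ways. Cdk1 (3451 bases) was at most 0.39 in MPP1 and 0.25 in MPP2. Nusap1 (2352 bases) was the lowest in HSC (-0.71) and MPP2 (-0.61). Cenpe (461 bases) was the highest in HSC (1.09).

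Of the genes around the program, Cdkn1a, the CDK inhibitor p21, was higher in HSC (2.76 ± 0.36 SE, adjusted p = 9.2e-05), MPP1 (1.76, adjusted p = 0.0042) and MPP2 (1.60, adjusted p = 0.015), the 1 call of its list of 13 tested genes in each. The median of that list lay the other way, at -0.48 in HSC, -0.45 in MPP1 and -0.58 in MPP2, and it was -0.04 in MPP4. Fen1, a flap nuclease of DNA replication, was higher in all 4 populations (1.17, 0.88, 0.71 and 0.72). Over all genes, 3.66, 4.74, 1.51 and 1.03% were called higher in HSC, MPP1, MPP2 and MPP4. Whether the counts of the lists that follow stood out from these shares was not tested. Among 29 genes of G1/S and DNA replication, 2, 2, 1 and 5 were called higher in HSC, MPP1, MPP2 and MPP4 and none lower. The medians were 0.29, 0.02, -0.00 and 0.42. Among 24 upstream regulators 0, 3, 0 and 2 were called higher, and E2f2, an activating E2F, led in MPP1 (2.15, adjusted p = 0.0042) and MPP4 (1.98, adjusted p = 0.012). Of 49 other mitosis genes tested, 0, 2, 0 and 3 were called higher, Cdc25b, a phosphatase that activates CDK1, first in MPP4 (1.65, adjusted p = 0.00078). Without MPP1 Mettl3KO replicate 2, Cdkn1a (1.43, adjusted p = 0.014), Fen1 (0.80, adjusted p = 0.0016) and E2f2 (1.22, adjusted p = 0.017) were still higher in MPP1. The lists then also held genes that were lower in MPP1, namely Rfc4, Cdc45, Pcna and Slbp of G1/S and DNA replication (2 higher, median -0.16), Rbbp4 of the upstream regulators (3 higher) and Cenpk, Kif15 and Cenpn of the other mitosis genes (none higher). Cdkn2c of the list of Cdkn1a was lower as well. Over all genes, 5.9% were then called higher and 5.1% lower in MPP1. Without MPP2 WT replicate 1, Cdkn1a (1.64, adjusted p = 0.065) and Fen1 (0.64, adjusted p = 0.054) lost their calls in MPP2.

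The 10x libraries held 3007 to 4919 cell barcodes each, where the series design aimed at 3000 cells per replicate, and 24396 of 24693 cells were kept. In 303 cases a barcode occurred in more than 1 library. Median depth was 5945 to 10490 UMIs per cell. Summed over all LK cells, Mettl3 was 10.6, 12.5 and 13.1 CPM in Mettl3KO against 19.7, 22.3 and 18.9 CPM in WT. WT replicate 3 was the shallowest and held 1095 neutrophil-like among its 4348 cells. Over all LK cells the 42 genes took 0.416, 0.398 and 0.393% of UMIs in WT and 0.408, 0.468 and 0.423% in Mettl3KO, which overlap (exact permutation p = 0.2, two-sided, smallest possible 0.1). With each cell thinned to 2000 UMIs, cells with at least 4 UMIs from the 42 genes made up 62.3, 58.0 and 56.1% in WT and 54.97, 63.9 and 57.7% in Mettl3KO (exact permutation p = 1). No cell had fewer than 2000 UMIs, so none was left out, and 12.4 to 16.6% of cells sat next to the limit with 3 or 4. Cells with at least 8 such UMIs were 38.7, 34.9 and 34.8% in WT and 35.8, 43.1 and 37.4% in Mettl3KO, which overlap. Cells with at least 16 such UMIs were 12.4, 10.3 and 10.5% in WT and 14.4, 20.4 and 16.2% in Mettl3KO. The limit of 16 was not among the set limits of 4, 2 and 8, and the part of class makeup was not tested. High cells also carried more UMIs of the G1/S genes, at means of 6.11 to 8.36 against 4.44 to 5.08 in the other cells.

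Summed over all LK cells, 3 of the 42 genes passed, where 22.4% of all genes were called in either direction, so the share of the 42 genes lay below the background. Cdca2 rose (35.3, 35.6 and 34.5 CPM in Mettl3KO against 29.1, 26.4 and 27.5 CPM in WT, log2 fold change 0.34, adjusted p = 0.0089, edgeR), Cenpf rose (0.32, adjusted p = 0.025) and Cks2, a small CDK partner, fell (-0.31, adjusted p = 0.032). Without 1 library the count was 1 to 3, the lowest without WT replicate 2 or Mettl3KO replicate 3, and Cdca2 kept its call each time.

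Clusters were built without cell-cycle genes and named from markers, and names were rebuilt here. Levels differed most by class. In WT the 42 genes took 0.89% of UMIs in B cell progenitor-like cells, 0.54% in erythroid-like cells, 0.32% in monocyte progenitor-like cells and 0.10% in HSC/MPP-like cells. High cells were 83.1% of B cell progenitor-like, 91.9% of erythroid-like and 10.8% of HSC/MPP-like cells. Erythroid-like cells had deeper libraries, and cluster 17, an unnamed cluster led by Jchain with 111 cells, had 2.70% high cells at a median of 5023 UMIs. The shares thus differ between classes by far more than that cluster's level, and at 10.8% the WT HSC/MPP-like cells lie closest to it among the classes tested.

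In the HSC/MPP-like class 38 of the 42 genes were called higher in Mettl3KO and none lower, where 15.3% of all genes were called higher. The median was 1.48. Some of the 42 had few WT counts here, such as Kif4 (2.31, 4.57 and 2.51 CPM) and Anln (6.15, 3.81 and 0 CPM). Genes with so few WT counts could hardly be called lower. In cluster 10, which held most WT cells of the class, 24 of the 42 passed the filter on low counts. Ube2c, the ubiquitin-conjugating enzyme of the anaphase-promoting complex, was 122, 147 and 117 CPM in Mettl3KO against 20.8, 17.5 and 17.6 CPM in WT (2.78 ± 0.15 SE, adjusted p = 2.4e-09, edgeR). Mki67 was 92.8, 108 and 83.7 CPM against 19.2, 20.6 and 13.4 CPM (2.40, adjusted p = 3.1e-08), and Birc5, the passenger complex protein survivin, was 181, 214 and 154 CPM against 43.8, 35.8 and 28.5 CPM (2.34, adjusted p = 1.5e-08). High cells were 12.3, 10.1 and 10.1% of the class in WT and 29.8, 34.9 and 25.4% in Mettl3KO, without overlap (exact permutation p = 0.1, the smallest possible).

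This class joined clusters with unlike makeup, and the result rests on that. Cluster 2 held 2505 Mettl3KO and 18 WT cells, and cluster 10 held 208 Mettl3KO and 815 WT cells, so the class sets cells of cluster 2 against cells of cluster 10. Within cluster 10 alone none of the 24 genes tested was called (1 at an unadjusted p under 0.05), and high cells were 11.8, 9.96 and 10.3% in WT and 16, 18.5 and 7.35% in Mettl3KO, which overlap. Pooled with lymphoid-primed-like cells, 8 genes were higher (14% of all genes were), namely Cdca2 (0.97), Mki67 (0.72), Cenpf (0.70), Birc5 (0.57), Pbk (0.55), Cenpe (0.48), Kif20b (0.48) and Cdk1 (0.47). Pooled with clusters 5 and 8 as well, Cdca2 was higher and Cks2, Nusap1, Racgap1 and Spc25 were lower, where 20% of all genes were called in either direction. Genotype and cluster cannot be told apart in this class. These groupings were chosen after the data were seen.

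**Figure D5:**
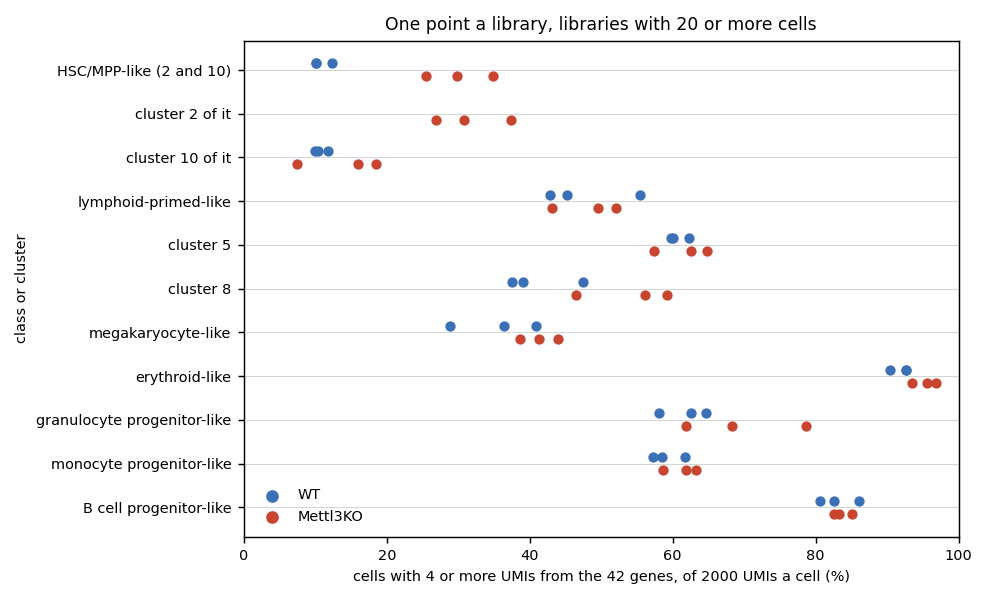
Share of cells with at least 4 UMIs from the 42 genes after thinning to 2000 UMIs (percent, x axis) by class or cluster (y axis), 1 point per library with 20 or more cells. In the HSC/MPP-like class Mettl3KO libraries (25.4 to 34.9) lie above WT libraries (10.1 to 12.3), and in cluster 10 alone the groups overlap.

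In erythroid-like cells Nusap1 and Pbk, a mitotic kinase, fell in Mettl3KO, where 6% of all genes were called in either direction. Nusap1 was 99.5, 89.7 and 107 CPM in Mettl3KO against 145, 143 and 146 CPM in WT (-0.55 ± 0.08 SE, adjusted p = 0.0022, edgeR), and it kept its call without each single library. High cells were 90.3 to 92.6% of the class in WT and 93.5 to 96.8% in Mettl3KO, without overlap (exact permutation p = 0.1, the smallest possible). The share of UMIs from the 42 genes lay the other way, at 0.536% ± 0.007 (SD, n = 3) in WT and 0.524% ± 0.017 (SD, n = 3) in Mettl3KO, with overlapping libraries (exact permutation p = 0.4). Pbk was 90.0, 85.2 and 73.4 CPM against 97.3, 108 and 108 CPM (-0.34, adjusted p = 0.046), and lost its call without 5 of the 6 libraries in turn.

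In megakaryocyte-like cells 41 genes were tested, 6 were called higher and 3 lower, where 32.2% of all genes were called in either direction. Cenpf (0.67), Cdca2 (0.80), Birc5 (0.50), Mki67 (0.46), Kif20a (0.87) and Cenpa (0.34) were higher, and Cdca8, the passenger complex protein borealin (-0.64), Nusap1 (-0.51) and Ccnb2 (-0.39) were lower. Cdca8 was 102, 94.5 and 106 CPM in Mettl3KO against 180, 135 and 158 CPM in WT. This class too joined clusters of unlike makeup, cluster 9 with 1086 Mettl3KO and 1 WT cells and cluster 13 with 41 Mettl3KO and 461 WT cells. Genotype and cluster cannot be told apart there either.

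The other classes gave at most 1 call. Hmmr, a spindle protein, was higher in cluster 8 (0.69, adjusted p = 0.046), where 1.36% of all genes were called, and lost that call without WT replicate 2 or without Mettl3KO replicate 1 or 2. No gene of the 42 was called in B cell progenitor-like cells (0.633% of all genes; 6 at an unadjusted p under 0.05), cluster 5 (3.17%; 4), granulocyte progenitor-like cells (1.64%; 4), lymphoid-primed-like cells (0.225%; 1) or monocyte progenitor-like cells (0.785%; 1), by edgeR, and DESeq2 called 0 in each of these 5. In B cell progenitor-like cells the 42 genes took 0.91, 0.88 and 0.88% of UMIs in WT and 0.86, 0.85 and 0.83% in Mettl3KO, while the class grew from 3.59 to 6.92% of WT libraries to 16.8 to 30.4% of Mettl3KO libraries.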

How the data were processed

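Bulk RNA-seq (24 libraries, 8 groups of 3) and 10x single-cell RNA-seq (6 libraries) were used. Both deposited tables hold counts. The name of the bulk table says FPKM, but its deposited values are whole numbers and library sums are unequal, so they were taken as counts, and the authors' counting tool is not given in the sources used here. The 10x table holds the authors' UMI counts per gene and cell. Bowtie, TopHat and Cell Ranger 2.2 appear, with no role given, per the submitters' processing notes. Names turned into dates stand for 27 genes of the bulk data, none of them among the 42.

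Counts were filtered (filterByExpr), scaled (TMM) and tested with edgeR 4.0.16 (quasi-likelihood) in R 4.3.3, in 1 fit of 8 group means with 16 residual degrees of freedom. P-values were adjusted over all genes tested (Benjamini-Hochberg) and called under 0.05. In each comparison called genes were named, at most the 10 with the smallest p, and where fewer than 3 passed, the 3 with the smallest p. Levels are given library by library for 1 or 2 genes of each role, and those of Cdca2, Cenpf, Nusap1, Pbk, Cdca8, Cks2 and Ube2c were added after their values were seen. The members, lists and tests were chosen with earlier results of these data known.

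Cells with over 10% mitochondrial UMIs were left out. Clusters came from scanpy 1.11.5 and leidenalg 0.10.2 (1975 variable genes without cell-cycle genes, 30 components, resolution 1). A cluster needed at least 3 raised markers to be named. A class or unnamed cluster needed 50 cells in every library to be tested, on UMIs summed per library. Of the cells, 248 (1.02%) were marked as doublets by Scrublet and kept. Shares of high cells used 2000 UMIs per cell. P-values cover the spread between mice. Replicate numbers did not pair Mettl3KO with WT (correlations of -0.31 to 0.09 in bulk), and paired the WT populations. The alternatives were DESeq2 1.42.0, its size factors, no filter on low counts, a replicate block, only the libraries compared, and leaving out each library. The scripts were tested on simulated counts.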

Additional observations from a re-analysis of the deposited data

Results flagged for a closer look

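Some genes moved one way in one class of LK cells and the other way in another, and the difference between classes was not tested. Nusap1 had a log2 fold change of -0.55 in erythroid-like cells and -0.51 in megakaryocyte-like cells, against 1.49 in HSC/MPP-like cells. Pbk was at -0.34 in erythroid-like cells, against 1.57 in HSC/MPP-like cells. Cdca8 was at -0.64 in megakaryocyte-like cells, against 1.06 in HSC/MPP-like cells. The HSC/MPP-like values set cluster 2, nearly all Mettl3KO cells, against cluster 10, mostly WT cells, so genotype and cluster cannot be told apart there. The megakaryocyte-like values set cluster 9 (1086 Mettl3KO and 1 WT cells) against cluster 13 (41 Mettl3KO and 461 WT cells), with the same limit.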

How the results depend on the processing

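Over 1261 alternatives for 105 values of named genes, 1080 kept their direction and side of the threshold, 159 lost the call, 13 gained it and 9 turned direction. Genes called, Mettl3KO against WT: on only the libraries compared, 0 in HSC, 0 in MPP1, 2 in MPP2 and 17 in MPP4, and by DESeq2 2 in MPP4. Leaving out 1 library gave 0 to 1 in HSC, 1 to 9 in MPP1, 0 in MPP4, 1 to 3 in LK, 0 to 2 in cluster 8 and 1 to 2 in erythroid-like cells. Between WT populations DESeq2 called 1 gene in HSC against MPP1, 17 in HSC against MPP2, 33 in HSC against MPP4, 29 in MPP1 against MPP2 and 33 in MPP1 against MPP4, and only the libraries compared gave 24, 34, 30 and 39 in the last 4. The replicate block within genotype gave 14, 29 and 23 in HSC against MPP2, HSC against MPP4 and MPP1 against MPP2. A replicate block over both genotypes gave 10 in HSC against MPP4. Leaving out 1 library gave 0 to 1, 0 to 4, 1 to 9, 1 to 9 and 9 to 16 in these 5 comparisons. Between WT populations, shares of all genes called are not given for DESeq2, only the libraries compared or the block over both genotypes. Such a share can move with the method. For MPP4 Mettl3KO, 1.03% of all genes were higher in the main fit, 2.26% by DESeq2 and 4% on the libraries compared. The WT counts under these 3 alternatives thus do not show whether the 42 genes stood out from all genes.

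Replicate numbers did not pair Mettl3KO with WT. With the replicate block 1 gene was called in LK, 2 in cluster 8 and 1 in erythroid-like cells, and no other count of Mettl3KO against WT moved by over 1.5 times. Without a filter on low counts 2 were called in cluster 8 and 1 in granulocyte progenitor-like cells, and DESeq2 called 0 in cluster 8. In HSC/MPP-like cells the count was 0 in cluster 10 alone, 8 pooled with lymphoid-primed-like cells and 5 pooled with clusters 5 and 8 too, alternatives chosen after seeing the data. In cluster 10 alone Ube2c was at -0.76 and Cenpf at -0.47, and in the widest pool Ube2c was at -0.020, Cdca3 at -0.12, Tpx2 at -0.050 and Hmmr at -0.027. At resolution 0.6, where the HSC/MPP-like class had under 50 cells in a library and was not run, 2 were called in lymphoid-primed-like cells and 12 over all classes, with Aurka at 0.29 in lymphoid-primed-like and Cenpa at -0.10 in megakaryocyte-like cells. Shares of all genes called are not given at that resolution, so its counts do not show whether the 42 genes stood out from all genes. The Tpx2 effect in HSC against MPP1 ran from -0.88 (without MPP1 Mettl3KO replicate 1) to 0.024 (without replicate 2). The difference in high cells of LK, 0.067 percentage points, was -0.067 with marked doublets removed, -1.79 with 4000 UMIs and at least 8 from the genes, -3.09 with at least 2, and -2.46 to 2.02 without 1 library. The cause was not tested. Depth limited the smallest group, cluster 10, where 24 of the 42 genes passed the filter on low counts.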
